A study of Danio rerio with 6 samples.

Results

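Enzymes that need molecular oxygen as a substrate were followed across the brains of 6 adult zebrafish, 3 exposed to low oxygen and 3 kept at ambient oxygen. The set holds the JmjC-domain histone demethylases and their relatives, the TET enzymes of DNA, the AlkB homologues and FTO, and the collagen prolyl and lysyl hydroxylases. Members were the array rows whose platform symbol names a single gene and starts with kdm2 to kdm8, jmjd, p4ha or tet with a digit, plod or alkbh, or is fto, and the rows of a gene were averaged. This gave 47 rows and 42 genes of 19260 genes in all, spread over 10 subfamilies. 2 further rows name a member beside another gene (plod3 with wu:fb72h05, alkbh6 with capns1a) and were left out by the rule.

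Fish of the Tübingen strain, about 1 year old and of unspecified sex, were placed for 3 h in water depleted of oxygen with nitrogen gas (1.20 ± 0.6 mg/l dissolved oxygen), and the controls were at 6.6 ± 0.45 mg/l (what the error stands for is not stated in the labels). Each brain, taken whole, was run on its own Affymetrix Zebrafish Gene 1.0 ST array, and fish are numbered 1 to 3 within hypoxia and within normoxia. Values are the deposited log2 values, which ran from 1.62 to 14.34. The comparison is hypoxia minus normoxia, tested with limma over all genes with a Benjamini-Hochberg adjusted p under 0.05 as the threshold, and the number of arrays limits its precision.

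As a class these enzymes bind ferrous iron and spend molecular oxygen and 2-oxoglutarate in each cycle, releasing succinate and carbon dioxide, which need not hold for every member. The histone demethylases strip methyl groups from lysines of histone tails, the TET enzymes oxidise methylcytosine, the AlkB homologues and FTO remove alkyl groups mainly from DNA and RNA, and the collagen hydroxylases modify procollagen chains in the endoplasmic reticulum. In mammalian cells the genes for KDM3A, KDM4B, KDM4C, KDM6B, P4HA1, P4HA2, PLOD1 and PLOD2 are described as targets of hypoxia-inducible factor (HIF), the transcription factor that accumulates when oxygen is short. The arrays measure the transcripts of these enzymes, not their activity or the marks they remove.

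The arrays were unequal before any grouping. Their correlations with each other over all genes lay between 0.917 and 0.965, and normoxia 1 had the widest spread of gene values (SD 1.602, against 1.25 to 1.47 in the others). 40.9% of all genes had their highest value in normoxia 1, and so did 23 of the 42 members. Normoxia 1 exceeded every other array by at least 0.4 in 9.31% of all genes and in 5 members (kdm4b, kdm6a, kdm6bb, jmjd7 and alkbh1). Among genes above the median level 76.8% had a lower mean in hypoxia, and the median log2 difference was -0.18 for genes with a mean of 8 or more and 0.09 for genes with a mean under 6. The neuronal markers were present on every array (mean log2 level of 11 markers from 9.75 to 10.47). Of the radial glia and astroglia markers 7 of 8 were lower in hypoxia (median log2 difference -0.45). So were 8 of 10 for microglia and macrophages (-0.35) and 5 of 6 for oligodendrocytes (-0.30). Other cells had such counts too, with 8 of 11 for neurons (-0.08), 7 of 9 for endothelium (-0.20) and 3 of 4 for blood (-0.30). The controls were not uniform in the glial markers. As a mean deviation from each gene's average, normoxia 2 was the lowest brain for microglia and macrophages (-0.25) and oligodendrocytes (-0.30). For radial glia and astroglia normoxia 2 (-0.18) lay below hypoxia 2 (-0.02) and hypoxia 3 (-0.13). Normoxia 1 and normoxia 3 were the highest brains for all these glial lists. Of the pineal and photoreceptor markers 1 of 6 was lower. For comparison, 61.1% of all genes were lower, and 77.6% of those with a mean of 8 or more. No marker passed the threshold (smallest limma adjusted p 0.72). The part of these cells in the members' differences was not tested. The mean level of 6 pituitary hormone genes ranged from 6.42 to 10.54 between brains and was highest in hypoxia 3 and normoxia 3. In whole brain, fewer cells of a type and less RNA per cell cannot be told apart.

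No member passed the threshold. Of the 42 genes, 16 had a higher and 26 a lower mean in hypoxia, which is 61.9% lower against 61.1% of all genes. limma called 0 members at an adjusted p under 0.05 (0.00519% of all genes were called) and 0 at an unadjusted p under 0.05 (6.66% of all genes), the smallest unadjusted p being 0.0841. Adjusted p ran from 0.72 to 0.997 over the members. The median log2 difference was -0.06 over the members and -0.08 over all genes. The values of the 2 groups did not overlap in 2 members, jmjd1cb (higher) and jmjd7 (lower), against 11.3% of all genes (2.33% higher, 9.02% lower).

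The split of signs moved with the scaling of the arrays. Equal medians move every gene's log2 difference by 1 constant (0.14 over the genes, -0.11 over all rows), so small differences change sign by construction. With the arrays shifted to equal medians over the genes, a setting chosen with the values in view, 28 members were higher and 14 lower, and 40.9% of all genes were lower. With equal medians over all rows 8 were higher and 34 lower, and 75.2% of all genes were lower. After quantile normalization of gene values 26 were higher and 16 lower, against 48.1% of all genes lower. This scaling moves genes by different amounts (-0.20 to 0.30 among the members). It changed the sign of 14 of the 42 members and left that of 28. The members' median log2 difference was 0.08, -0.17 and 0.05 in these settings, and no member passed in any of them. Among the subfamily medians, those of KDM2 and KDM7 and of the other JmjC enzymes stayed below 0 and those of TET and PLOD above 0 under all 3 scalings, and the other 6 changed sign in at least 1 of them. The KDM2 and KDM7 median did turn, to 0.05, when hypoxia 1 and normoxia 1 were both left out, a setting also chosen later. The TET median turned to -0.12 without normoxia 2, and the PLOD median to -0.0067 with the brightest row per gene. 12 of the 42 members kept the sign of their difference in every setting tried with limma, among them jmjd4, jmjd7, jmjd8, kdm6a, KDM3B and alkbh1 (lower) and jmjd1cb, TET1 and alkbh4 (higher). These settings reuse the same 6 arrays, and the share of all genes that kept their sign was not counted, so a kept sign is no sign of a response. Leaving out normoxia 2 brought 7 members to an unadjusted p under 0.05 (TET2, alkbh1, alkbh4, jmjd4, jmjd7, kdm6a and plod2), which is 16.7% of the members against 24.6% of all genes, and their smallest limma adjusted p was 0.132.

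The data bound the size of a difference that could have been missed. The limma 95% interval of the log2 difference included 0 for all 42 members. It reached a 2-fold increase (1 on the log2 scale) in 1 member, plod2, and a 2-fold decrease in 1 member, jmjd4. For the other members changes of 2-fold in either direction lay outside the interval on the deposited scaling, each interval taken for its gene alone. Some came close, such as jmjd7 (lower end -0.95) and p4ha3 (upper end 0.99). Equal medians shift all differences by -0.11 or 0.14, so the bound need not hold under those scalings. The intervals are of array values, and for the dimmest members, such as alkbh2 (mean 5.98) and kdm8 (6.195), they may not bound the change in transcript. The pooled SD within groups had a median of 0.28 over the members and 0.27 over all genes, and was lowest in kdm4aa (0.07) and highest in p4ha3 (0.54).

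**Figure D1:**
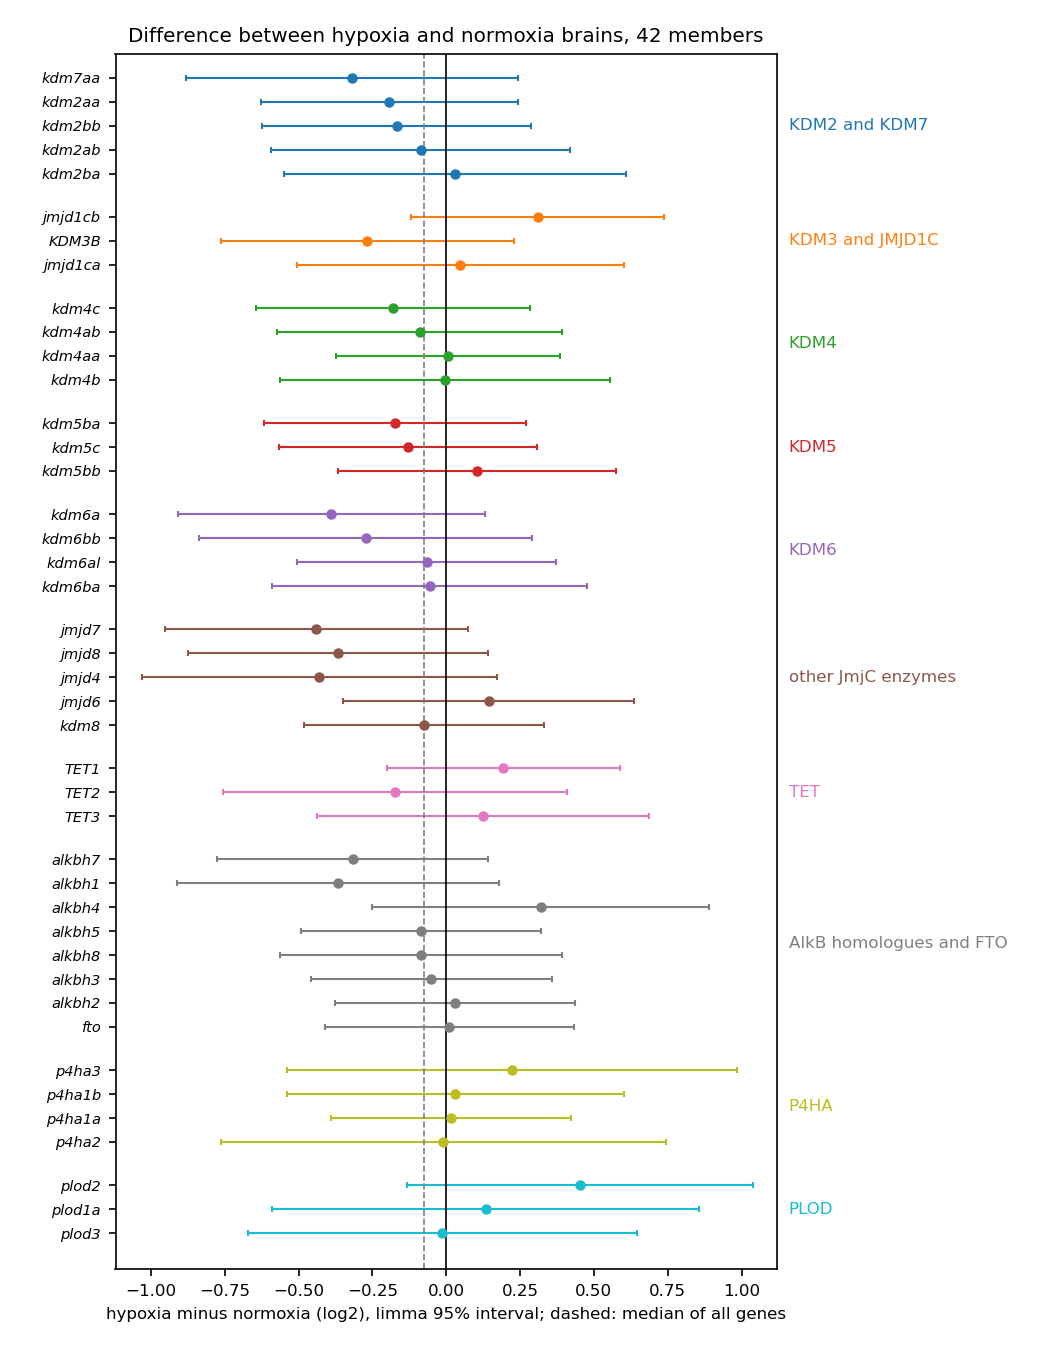
Log2 difference of hypoxia minus normoxia (horizontal axis) for the 42 members, grouped by subfamily, with limma 95% intervals from 3 brains per group. Points are single genes and the dashed line is the median of all genes (-0.08). All 42 intervals cross 0, and the points run from -0.44 for jmjd7 to 0.45 for plod2.

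Demethylases of the KDM2 and KDM7 subfamily, which act on methylated histone lysines linked to both active and silent chromatin, had a median log2 difference of -0.17, and 4 of the 5 genes were lower. kdm7aa, whose mammalian counterpart removes repressive methyl marks, was 7.54, 7.69 and 8.26 in the hypoxia brains and 8.50, 8.04 and 7.91 in the normoxia brains. Hypoxia 1 and hypoxia 2 were the lowest and normoxia 1 the highest, but hypoxia 3 lay above 2 of the 3 normoxia brains. kdm2aa was 7.81, 7.89 and 8.20 in the hypoxia brains and 8.35, 8.05 and 8.08 in the normoxia brains. kdm2bb was 7.39, 7.49 and 7.71 in the hypoxia brains and 7.995, 7.54 and 7.55 in the normoxia brains. In both KDM2 genes hypoxia 3 lay within the normoxia range and normoxia 1 was the highest. The log2 difference was -0.32 (SE 0.25) for kdm7aa, -0.19 (SE 0.19) for kdm2aa and -0.17 (SE 0.20) for kdm2bb, with limma adjusted p from 0.765 to 0.831. Without normoxia 1 they were -0.145, -0.10 and -0.02. The remaining kdm2ab and kdm2ba had differences of -0.09 and 0.03.

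In the KDM3 and JMJD1C subfamily, some of whose mammalian members act on the repressive methylation of histone H3 lysine 9, the genes differed in sign. jmjd1cb was 9.71, 9.59 and 9.73 in the hypoxia brains and 9.56, 9.10 and 9.44 in the normoxia brains. Every hypoxia value was above every normoxia value, although hypoxia 2 and normoxia 1 were only 0.03 apart, and the log2 difference of 0.31 (SE 0.19) did not pass (limma adjusted p = 0.736, interval -0.12 to 0.74). KDM3B, measured under an upper-case symbol, was 8.34, 8.33 and 8.81 in the hypoxia brains and 9.0, 8.47 and 8.81 in the normoxia brains, a difference of -0.27 (SE 0.22) with hypoxia 3 level with normoxia 3. The other copy, jmjd1ca, was 8.21, 8.60 and 8.60 in the hypoxia brains and 8.75, 7.95 and 8.57 in the normoxia brains. Its groups overlapped throughout and its difference was 0.05 (SE 0.25). Genes of a level like that of jmjd1cb had a median difference of -0.19, so jmjd1cb lay 0.50 above them.

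KDM4 enzymes, which remove trimethylation from histone H3, were nearly level, with a median log2 difference of -0.05 in 4 genes. kdm4c was 8.45, 8.66 and 8.81 in the hypoxia brains and 8.96, 8.51 and 8.99 in the normoxia brains, with hypoxia 3 inside the normoxia range. kdm4ab was 7.73, 8.10 and 8.28 in the hypoxia brains and 8.39, 8.03 and 7.96 in the normoxia brains, again overlapping. kdm4aa had the smallest spread of any member, at 8.59, 8.62 and 8.69 in the hypoxia brains and 8.72, 8.61 and 8.55 in the normoxia brains. All 6 of its values lay within 0.17 of each other, and its difference was 0.01 (SE 0.17), with an interval of -0.37 to 0.39. kdm4b was 8.71, 8.78 and 8.82 in the hypoxia brains and 9.24, 8.28 and 8.80 in the normoxia brains. Its hypoxia brains were close together, while normoxia 1 was the highest and normoxia 2 the lowest of the 6 arrays, and the difference was -0.0033 (SE 0.25). The interval of kdm4b, -0.56 to 0.56, was wider than that of kdm4aa.

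The KDM5 enzymes, which erase methylation of histone H3 lysine 4, had a median log2 difference of -0.13 in 3 genes. kdm5ba was 8.84, 9.16 and 9.23 in the hypoxia brains and 9.34, 9.03 and 9.38 in the normoxia brains, with hypoxia 1 the lowest. kdm5bb was 8.0, 8.09 and 8.52 in the hypoxia brains and 8.22, 7.88 and 8.20 in the normoxia brains, with hypoxia 3 the highest. kdm5c was 7.23, 6.82 and 7.13 in the hypoxia brains and 7.33, 7.01 and 7.23 in the normoxia brains. Differences were -0.17 (SE 0.20) for kdm5ba, -0.13 (SE 0.19) for kdm5c and 0.10 (SE 0.21) for kdm5bb, with limma adjusted p of 0.822, 0.865 and 0.903.

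Among the KDM6 enzymes, which remove repressive methylation of histone H3 lysine 27, all 4 genes had lower means in hypoxia and a median log2 difference of -0.17, close to the -0.18 of genes with a mean of 8 or more. All 4 were highest in normoxia 1. kdm6a, the counterpart of UTX and described as an oxygen-sensitive enzyme in human and mouse cells, was 8.13, 8.32 and 8.46 in the hypoxia brains and 9.12, 8.36 and 8.60 in the normoxia brains. Hypoxia 3 alone overlapped the normoxia group, by 0.10 above normoxia 2. Its difference was -0.39 (SE 0.23) (limma adjusted p = 0.736), and -0.18 without normoxia 1. kdm6bb was 8.94, 8.58 and 9.10 in the hypoxia brains and 9.58, 8.76 and 9.10 in the normoxia brains, a difference of -0.27 (SE 0.25) that became -0.06 without normoxia 1. kdm6al was 8.41, 8.46 and 8.71 in the hypoxia brains and 8.81, 8.37 and 8.60 in the normoxia brains. kdm6ba was 7.35, 6.98 and 7.19 in the hypoxia brains and 7.68, 7.11 and 6.90 in the normoxia brains. In these last genes the hypoxia values lay within or close to the normoxia range, with differences of -0.07 and -0.06.

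The lowest median of the 10 subfamilies, -0.37, was that of the other JmjC enzymes, most of which hydroxylate proteins other than histones in mammals. jmjd7, whose mammalian counterpart is a lysyl hydroxylase of GTPases, was 7.09, 7.13 and 7.26 in the hypoxia brains and 8.06, 7.33 and 7.41 in the normoxia brains. All hypoxia values were below all normoxia values, with hypoxia 3 and normoxia 2 0.07 apart. The log2 difference was -0.44 (SE 0.23) (limma adjusted p = 0.72, interval -0.95 to 0.07). jmjd4, whose counterpart modifies a translation release factor, was 6.57, 6.92 and 7.11 in the hypoxia brains and 7.73, 6.79 and 7.37 in the normoxia brains, a difference of -0.43 (SE 0.27). Here normoxia 2 lay among the hypoxia brains. jmjd8, a JmjC protein of the endoplasmic reticulum in mammals, was 8.97, 8.49 and 8.35 in the hypoxia brains and 9.23, 8.91 and 8.77 in the normoxia brains, a difference of -0.37 (SE 0.22) with hypoxia 1 above 2 normoxia brains. Without normoxia 1 the differences were -0.21 for jmjd7, -0.21 for jmjd4 and -0.24 for jmjd8. jmjd6 and kdm8 had differences of 0.14 and -0.08, so the low median came from 3 of 5 genes.

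**Figure D2:**
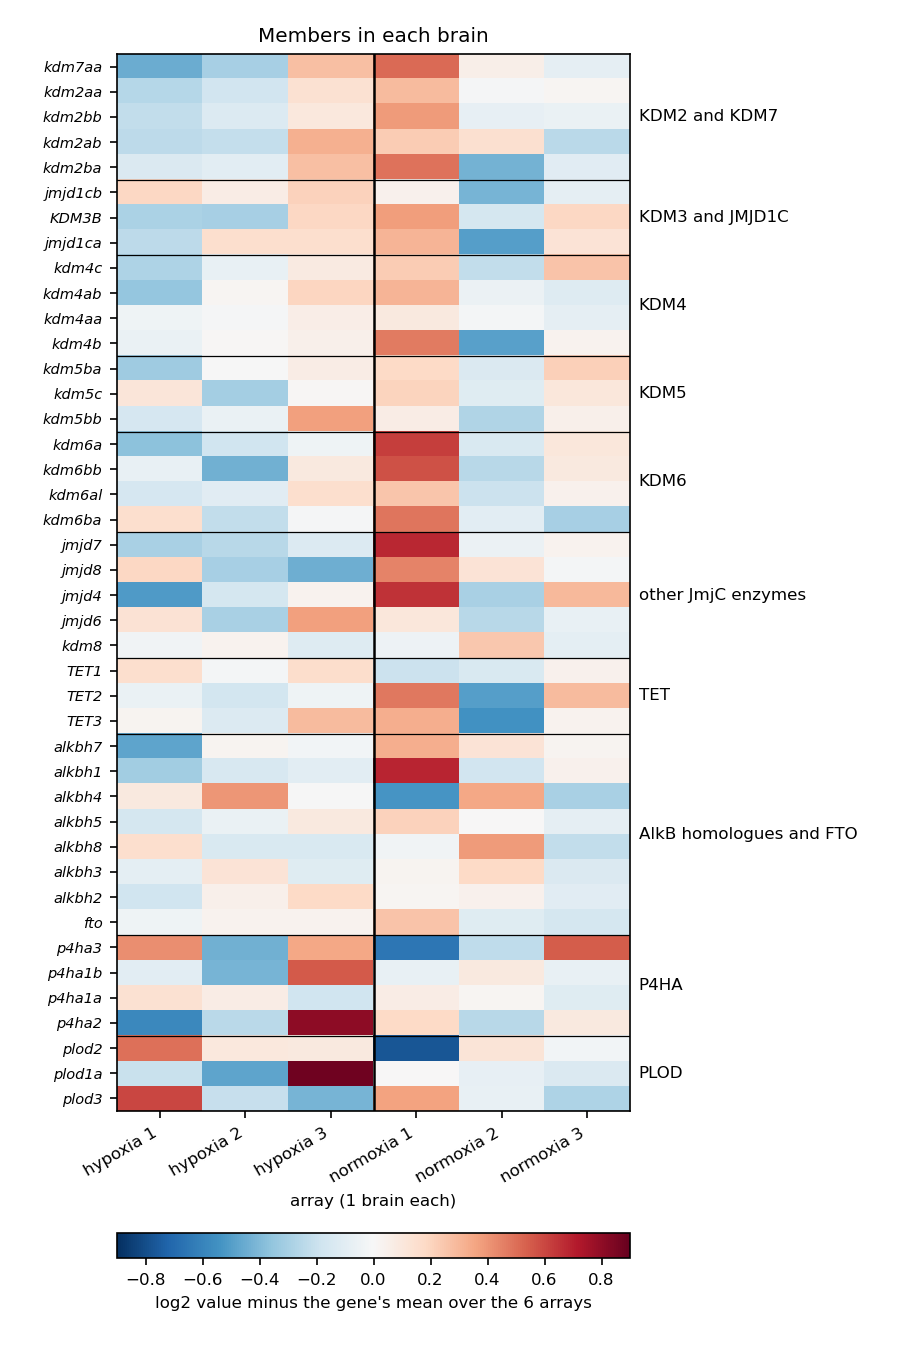
Each row is 1 of the 42 members and each column 1 brain, coloured by how far the log2 value lies from the gene's average on the 6 arrays, with subfamilies divided by horizontal lines and hypoxia from normoxia by the vertical line. Red columns for normoxia 1 run through most histone demethylases (it was the highest array for 23 of the 42 members), while p4ha1b, p4ha2 and plod1a were highest in hypoxia 3.

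The TET enzymes, which start active DNA demethylation, had a median log2 difference of 0.12 in 3 genes. TET1 was 8.60, 8.43 and 8.61 in the hypoxia brains and 8.26, 8.31 and 8.49 in the normoxia brains. Its difference was 0.19 (SE 0.17) (limma adjusted p = 0.782), with normoxia 3 above hypoxia 2. TET2 was 9.18, 9.07 and 9.20 in the hypoxia brains and 9.71, 8.74 and 9.52 in the normoxia brains. TET3 was 8.85, 8.70 and 9.11 in the hypoxia brains and 9.15, 8.28 and 8.86 in the normoxia brains. In both, normoxia 2 was the lowest array and normoxia 1 the highest, and the differences were -0.17 (SE 0.26) for TET2 and 0.12 (SE 0.25) for TET3. Without normoxia 2 they were -0.47 (TET2, limma adjusted p = 0.164) and -0.12 (TET3), the latter of opposite sign. The TET genes had a median 0.29 above genes of like level.

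AlkB homologues and FTO, most of which reverse methylation or alkylation of nucleic acids, showed 3 higher and 5 lower means in 8 genes, with a median log2 difference of -0.07. alkbh7, a mitochondrial member in mammals, was 7.41, 7.91 and 7.86 in the hypoxia brains and 8.21, 8.01 and 7.91 in the normoxia brains. alkbh1 was 6.31, 6.48 and 6.53 in the hypoxia brains and 7.31, 6.45 and 6.66 in the normoxia brains. alkbh4 was 6.56, 6.87 and 6.47 in the hypoxia brains and 5.94, 6.82 and 6.18 in the normoxia brains. The differences were -0.32 (SE 0.20), -0.37 (SE 0.24) and 0.32 (SE 0.25), with limma adjusted p of 0.743, 0.748 and 0.766, and the groups overlapped in each. For alkbh1 and alkbh4 normoxia 1 was the extreme array, and without it they were -0.12 and 0.13. The demethylases of methyladenosine in RNA had differences near 0. fto had a difference of 0.01 (SE 0.19) with an interval of -0.41 to 0.43, and alkbh5 one of -0.09 (SE 0.18) with an interval of -0.49 to 0.32. The repair enzymes alkbh2 and alkbh3 and the transfer RNA enzyme alkbh8 had differences between -0.09 and 0.03.

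**Figure D3:**
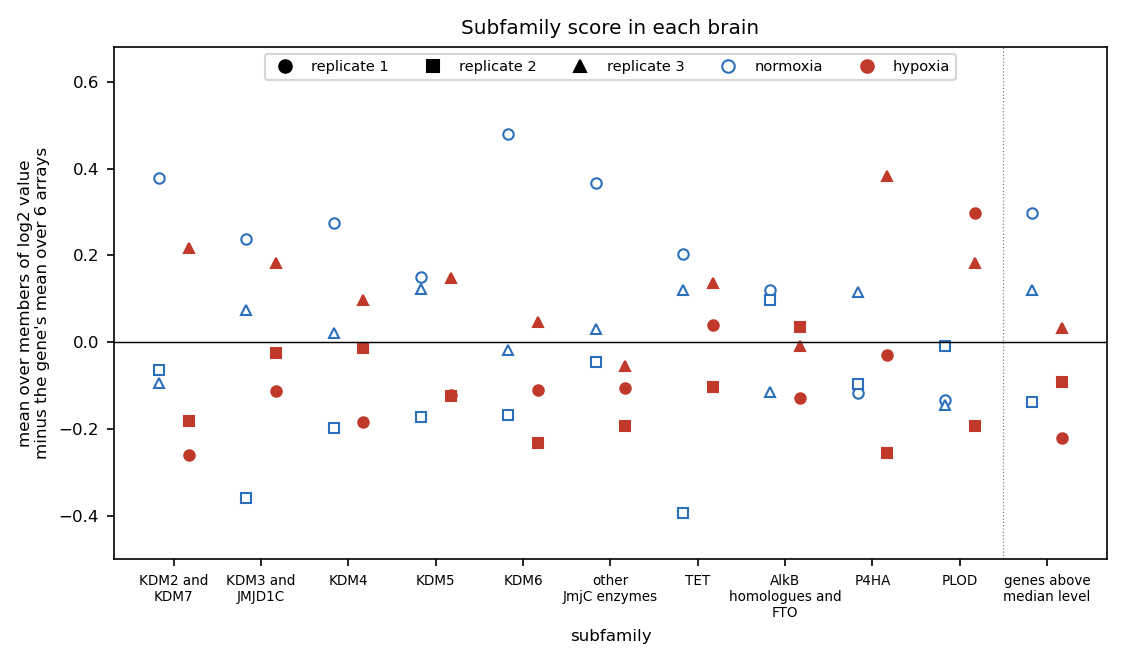
Score of each subfamily in each brain (vertical axis: deviation of each log2 value from its gene's average, averaged over members), with normoxia open and hypoxia filled, and all genes above the median level at the right for comparison. Normoxia 1 is the highest point for 8 of the 10 subfamilies (0.48 for KDM6), as it is for genes above the median level (0.30), whereas hypoxia 3 is the highest for P4HA (0.38) and hypoxia 1 for PLOD (0.30).

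Averaged over their members, 9 of the 10 subfamilies had overlapping groups. In the exception, the other JmjC enzymes, hypoxia 3 (-0.05) lay just below normoxia 2 (-0.04). The hypoxia brains scored -0.10 ± 0.14 and the normoxia brains 0.10 ± 0.34 for KDM6 (mean ± SD over 3 brains), and -0.12 ± 0.07 and 0.12 ± 0.22 for the other JmjC enzymes. The score over the 24 JmjC enzymes was 0.33 in normoxia 1, 0.10 in hypoxia 3, 0.01 in normoxia 3 and between -0.15 and -0.14 in hypoxia 1, hypoxia 2 and normoxia 2. The score of all genes above the median level put the arrays in nearly that order, with 0.30 in normoxia 1, 0.12 in normoxia 3, 0.03 in hypoxia 3, -0.09 in hypoxia 2, -0.14 in normoxia 2 and -0.22 in hypoxia 1. Without normoxia 1, 23 members were higher and 19 lower, while 57% of all genes were lower.

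The alpha subunits of collagen prolyl hydroxylase form the enzyme with protein disulphide isomerase, and hydroxyproline stabilises the collagen triple helix. Their median log2 difference was 0.02 in 4 genes. p4ha1a was 6.58, 6.51 and 6.26 in the hypoxia brains and 6.51, 6.46 and 6.33 in the normoxia brains, all within 0.32 of each other. p4ha1b was 7.44, 7.12 and 8.09 in the hypoxia brains and 7.47, 7.62 and 7.47 in the normoxia brains. p4ha2 was 6.57, 6.91 and 7.96 in the hypoxia brains and 7.33, 6.90 and 7.24 in the normoxia brains. For p4ha1b and p4ha2 hypoxia 3 was the highest brain, by 0.47 and 0.63 above the next, while hypoxia 2 was the lowest for p4ha1b and hypoxia 1 for p4ha2. Group means were therefore level, with differences of 0.02 (SE 0.18) for p4ha1a, 0.03 (SE 0.25) for p4ha1b and -0.01 (SE 0.33) for p4ha2. p4ha3 was 6.71, 5.86 and 6.64 in the hypoxia brains and 5.64, 6.06 and 6.84 in the normoxia brains, with a difference of 0.22 (SE 0.34) and the groups mixed.

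PLOD enzymes hydroxylate collagen lysines, which carry cross-links and sugars, and had a median log2 difference of 0.13 in 3 genes. plod1a was 6.61, 6.34 and 7.69 in the hypoxia brains and 6.82, 6.74 and 6.68 in the normoxia brains. As with p4ha1b and p4ha2, hypoxia 3 stood above the rest, here by 0.87, and the other hypoxia brains lay below all normoxia brains. plod3 was 7.02, 6.21 and 6.0 in the hypoxia brains and 6.78, 6.35 and 6.14 in the normoxia brains, highest in hypoxia 1. plod2, which promotes a type of cross-link common in fibrosis, was 7.03, 6.63 and 6.62 in the hypoxia brains and 5.77, 6.65 and 6.51 in the normoxia brains, and its difference of 0.45 (SE 0.26) was the largest of the 42 in size (limma adjusted p = 0.733, interval -0.13 to 1.04). The mean of plod2 hides 2 rows that disagree. One row was 7.35, 7.0 and 6.93 in the hypoxia brains and 6.89, 7.11 and 7.30 in the normoxia brains, a difference of -0.01. The other was 6.70, 6.26 and 6.31 against 4.64, 6.18 and 5.71, a difference of 0.91 with no overlap, in which normoxia 1 was the lowest. Of all genes 11.3% had no overlap, and the share of single rows was not counted. This second row was dim, with a mean of 5.97, under the median of all rows on every array (6.28 to 6.60). A difference in so dim a row may not follow the transcript. Without normoxia 1 the gene's difference was 0.18.

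**Figure D4:**
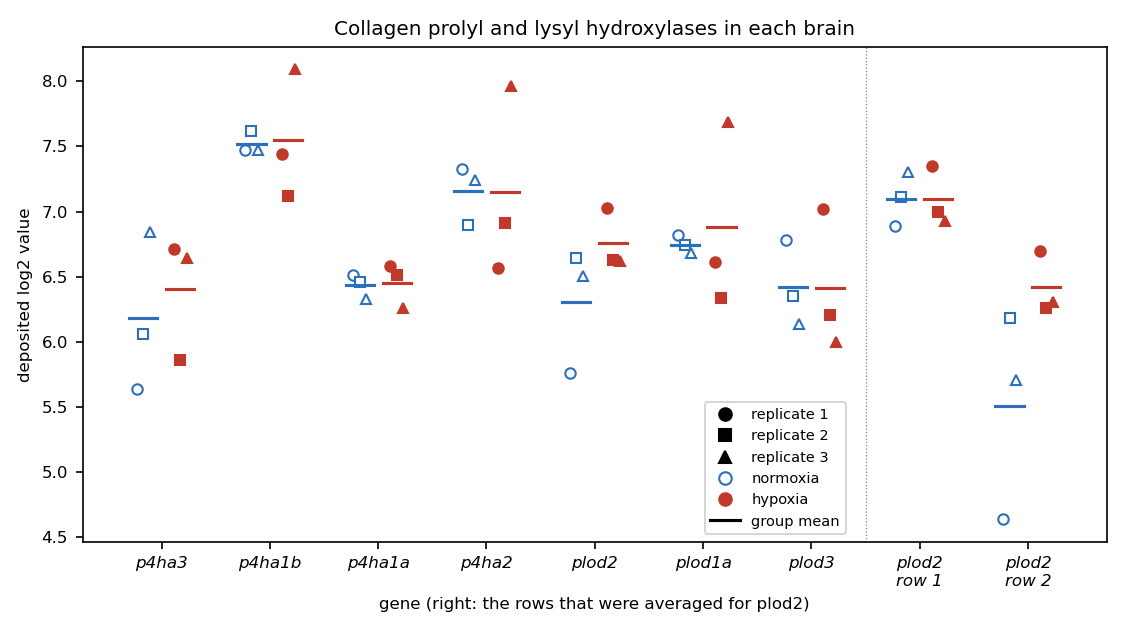
Deposited log2 values (vertical axis) of the 7 collagen hydroxylase genes in each brain, with bars at group means, and at the right the 2 rows averaged for plod2. Hypoxia 3 (filled triangle) stands apart at 8.09 for p4ha1b, 7.96 for p4ha2 and 7.69 for plod1a, and normoxia 1 (open circle) at 4.64 in 1 row of plod2.

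A value in hypoxia 3 at least 0.4 above every other array, a limit chosen after the values were seen, occurred in 0.649% of all genes and in 3 members, all of them collagen hydroxylases (p4ha1b, p4ha2 and plod1a). Each has a mammalian counterpart that HIF induces. plod2 and p4ha1a, which share that background, were not high in hypoxia 3 (6.62 and 6.26). kdm4b, kdm4c, kdm6ba and kdm6bb share it too, and each was highest in a normoxia array. egln3, a HIF prolyl hydroxylase gene singled out once its values were known, was highest in hypoxia 3, at 8.10 against 6.34 to 7.61 in the others. In hypoxia 1 and hypoxia 2 egln3 (6.85 and 6.34) lay below all normoxia brains, and its log2 difference was -0.08 (limma adjusted p = 0.964). It is a single gene, and the part of HIF in the hypoxia 3 values was not tested. Pituitary hormone transcripts were high in hypoxia 3 (score 2.06) and normoxia 3 (2.59), and normoxia 3 had 7.47 for p4ha1b, 7.24 for p4ha2 and 6.68 for plod1a. Pineal and photoreceptor markers were highest in hypoxia 3 (score 1.09), followed by hypoxia 1 (0.87) and normoxia 3 (0.86). The part of either tissue in the collagen hydroxylase values was not tested. Of 17 markers of pericytes, fibroblasts and meninges, the cells that make most collagen, 7 were higher and 10 lower in hypoxia. The dimmest, col6a2, had a mean of 6.23, under the median of all rows on every array (6.28 to 6.60). The mean level of the 17 markers was 7.23 to 7.35 in hypoxia and 7.38 to 7.47 in normoxia. The part of these cells in the collagen hydroxylase values was not tested. In hypoxia 3 itself the score of these markers was -0.07 (elsewhere -0.13 to 0.10), and that of the endothelial markers was -0.04 (elsewhere -0.15 to 0.21). Without hypoxia 3 the log2 differences were -0.24 for p4ha1b, -0.42 for p4ha2 and -0.27 for plod1a, none past the threshold.

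A list of mammalian HIF targets, which may not be complete, held 9 measured members (kdm4b, kdm4c, kdm6ba, kdm6bb, p4ha1a, p4ha1b, p4ha2, plod1a and plod2). Of these 9 members, 4 had a higher and 5 a lower mean in hypoxia. Their median log2 difference was -0.0033, between -0.27 for kdm6bb and 0.45 for plod2. The upper ends of their intervals ran from 0.28 for kdm4c to 1.04 for plod2. In folds, with the scaling as deposited, the interval of p4ha1a ended at 1.34, that of kdm4b at 1.47 and that of p4ha1b at 1.52. The mean of p4ha1a, 6.44, lay within the range of the array medians of all rows (6.28 to 6.60). Its interval is therefore one of the array values of a dim gene and may not bound the change in transcript. A row for kdm3a was not analysed here.

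Teleost duplication left several of these enzymes in a pair of copies, and 8 pairs could be compared within each array. kdm6a had a difference 0.32 below that of kdm6al (SE 0.11), and kdm5ba one 0.28 below that of kdm5bb (SE 0.11). In both pairs the exact two-sided permutation p was 0.1, the smallest that 3 against 3 brains allow, and 0.4 after Benjamini-Hochberg adjustment over the 8 pairs. jmjd1ca lay 0.26 below jmjd1cb (SE 0.18, exact permutation p = 0.3). p4ha1a and p4ha1b differed by -0.01 (SE 0.38, exact permutation p = 1). The other 4 pairs had exact permutation p of 0.3 to 0.6.

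**Figure D5:**
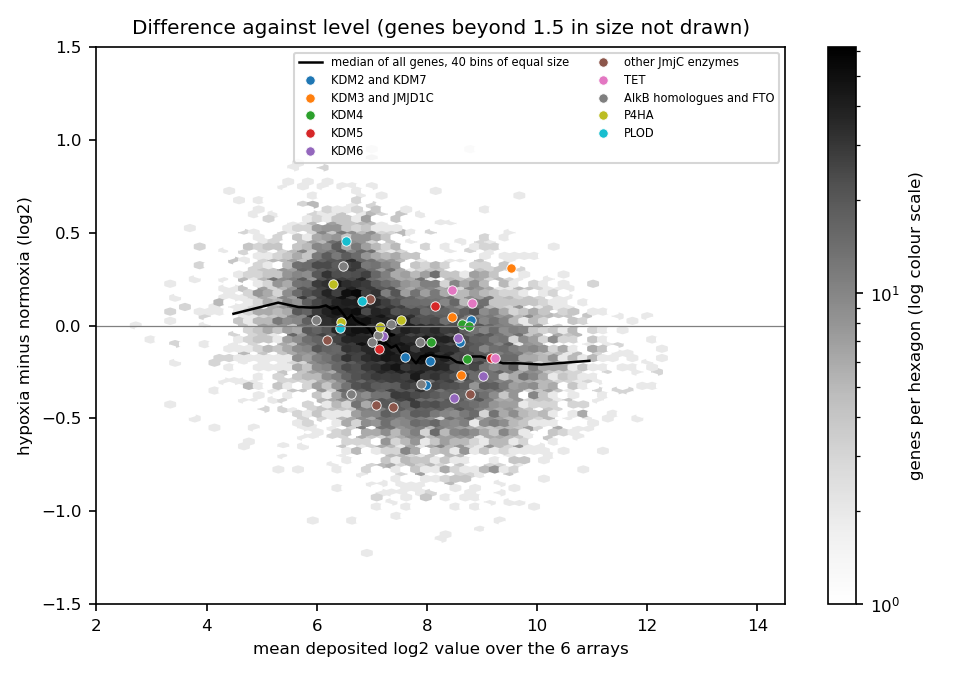
Log2 difference of hypoxia minus normoxia (vertical axis) against the mean log2 value over the 6 arrays, with all genes as grey hexagons, their running median as a black line and the 42 members as coloured points. The median of all genes passes from above 0 at low levels to below 0 at high levels, and the members lie on both sides of it, with a median of 0.03 above genes of like level.

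Level moved with the differences, so each member was also set beside the 500 genes nearest to it in mean level, a setting likewise chosen later. On that scale the median over the members was 0.03 on the log2 scale. Subfamily medians were 0.29 for TET, 0.23 for KDM3 and JMJD1C, 0.13 for PLOD, 0.12 for KDM4 and 0.10 for P4HA. They were 0.01 for KDM5, -0.0021 for the AlkB homologues and FTO, -0.04 for KDM2 and KDM7, -0.05 for KDM6 and -0.20 for the other JmjC enzymes. The single genes farthest from their level were jmjd1cb (0.50) and plod2 (0.42) above, and alkbh1 (-0.41) and jmjd4 (-0.37) below, none of which passed the test on its own.

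Partner genes of these enzymes were read from lists, and no gene of them passed either. In the other oxygenases of the same class, among them the HIF hydroxylases and the collagen prolyl hydroxylases of the P3H family, 20 of 26 were lower, with a median log2 difference of -0.13. phyhd1 (-0.78) and hif1an (-0.56), the asparaginyl hydroxylase that restrains HIF, had the smallest p there, both with limma adjusted p = 0.72. Enzymes that make or use 2-oxoglutarate, succinate and fumarate had lower means throughout (19 of 19, median log2 difference -0.29), and suclg1 and idh3b at -0.56 and -0.59 had the smallest p. For comparison, 76.8% of all genes above the median level were lower, and 56% of those with a mean of 6 to 8. In both lists the score was highest in normoxia 1 (0.32 for the oxygenases, 0.37 for the 2-oxoglutarate list). Normoxia 2 (-0.06 and -0.10) lay among the hypoxia brains in both. Normoxia 3 lay among them for the oxygenases (-0.0012) and above them for the 2-oxoglutarate list (0.24).

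Genes with roles opposite or next to those of the members were read in the same way. Of the histone methyltransferases 22 of 38 were lower, with a median log2 difference of -0.05, and eed of the Polycomb complex had a difference of -0.45. The DNA methylation list had 9 of 17 lower and a median of -0.01, with dnmt3bb.2 at 0.58. All 13 writers and readers of RNA methyladenosine were lower (median log2 difference -0.23), and none passed (smallest limma adjusted p 0.72). Their levels ran from 6.05 (mettl14) to 10.02. Of all genes above the median level 76.8% were lower, and of those with a mean of 6 to 8, 56%. The score of the 13 genes was 0.38 in normoxia 1, the highest array. Normoxia 2 (-0.12) lay among the hypoxia brains (-0.22 to 0.03), and normoxia 3 (0.04) just above them. Of the genes of collagen modification and folding 18 of 30 were lower, with a median of -0.05. Among these serpinh1a, a collagen chaperone, had a difference of -0.88 (SE 0.26, limma adjusted p = 0.72) and was 6.41, 6.37 and 6.95 in hypoxia against 7.61, 6.98 and 7.77 in normoxia. The flavin-dependent demethylase gene kdm1a, which uses oxygen without iron, had a difference of 0.09.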

How the data were processed

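The authors hybridised RNA of single brains (300 ng, integrity number above 7.0, per the labels) to 6 Affymetrix arrays. The deposited log2 values come from RMA as run by the authors, with its background correction and a quantile normalization of intensities, per the series' design text. Affymetrix Expression Console and RMA are named in the submitters' processing notes, while their versions, the probe set level and any filter are not stated there. The log2 scale was judged from the values.

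Of 75212 rows, 20806 name 1 gene in the platform annotation, 855 name several and 53551 are unnamed here. Rows of a gene were averaged, without a filter on dim genes. The Entrez identifier of 20323 rows was matched to RefSeq, and 1 symbol was updated. limma 3.58.1 in R 4.3.3 (lmFit, eBayes, no covariate) was fitted to all 19260 genes with Benjamini-Hochberg adjustment. Groups came from the sample titles. Deviations from group means correlated at -0.34, 0.10 and 0.20 between same-numbered arrays, and from -0.47 to 0.42 between the others. With 3 arrays per group these values cannot decide whether the numbers pair fish. No label says that they do, so no pairing was fitted in the main test.

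Members, lists and tests were chosen with earlier results of these data known. Named were the 3 members with the smallest p in each subfamily, 9 members with HIF-target counterparts, and up to 2 genes of each list, with egln3, further members and some patterns added after their values were seen. On simulated data for this comparison over 19260 genes, the test recovered 30% of 100 shifts of size 1 (log2) and 96% of 100 of size 2, and called 4 unchanged genes. Alternatives were a replicate block, leaving out arrays, other scalings, 1 row per gene in place of the mean, removal of dim genes, other variance moderation and a wider threshold.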

Additional observations from a re-analysis of the deposited data

How the results depend on the processing

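No member passed the threshold under any alternative, which were a replicate block, the omission of each array, 2 other scalings, the removal of dim genes, the use of the brightest row, variance moderation that was robust or followed intensity, an adjusted p under 0.1, and, chosen after the data were seen, leaving out hypoxia 1 and normoxia 1 together and equal medians over the genes. The replicate block changed no call of a member (0 past the threshold, 0 at an unadjusted p under 0.05). At an unadjusted p under 0.05 there was 1 member (2.38%) under quantile normalization, against 7.72% of all genes. With equal medians over the genes there was also 1, against 5.46% of all genes, and it was jmjd1cb in both. With 1 array left out there were 0 to 7 members. Without hypoxia 1 it was jmjd8 alone (2.38% of members, 2.63% of all genes), and 7 came without normoxia 2 (16.7% of members, 24.6% of all genes). Of all genes, 1 passed, against 2 after quantile normalization, 3 at an adjusted p under 0.1, 0 to 17 with 1 array left out (17 without normoxia 2), and 0 with equal medians over all rows, with genes of a mean of 6 or more, with an intensity trend, or without hypoxia 1 and normoxia 1 together.

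The median log2 difference of the other JmjC enzymes was -0.17 after quantile normalization, -0.12 without hypoxia 1 and normoxia 1 together (where that of KDM2 and KDM7 turned to 0.05) and -0.20 relative to genes of like level. That of KDM3 and JMJD1C was 0.34 without hypoxia 1 and normoxia 1 together, and that of the AlkB homologues and FTO 0.072 with equal medians over the genes. With 1 array left out the medians ran from -0.27 to -0.02 for KDM2 and KDM7, -0.19 to 0.21 for KDM3 and JMJD1C, -0.19 to 0.05 for KDM4, -0.22 to -0.0067 for KDM5, -0.32 to -0.0075 for KDM6, -0.40 to -0.21 for the other JmjC enzymes, -0.12 to 0.22 for TET, -0.14 to -0.0075 for the AlkB homologues and FTO, -0.07 to 0.18 for P4HA, 0.10 to 0.40 for PLOD (0.40 without hypoxia 2) and -0.16 to 0.01 for all members. With the brightest row per gene the PLOD median was -0.0067, since plod2 then rests on the row with a difference of -0.01. The other causes were not tested. Between 0 and 10 of the 33 named differences changed sign in a single alternative.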

Other observations

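2 rows that name a member together with another gene were not used. The row for plod3 and wu:fb72h05 had a log2 difference of -0.02, with 6.56, 6.02 and 6.66 in hypoxia and 6.27, 6.49 and 6.54 in normoxia. The row for alkbh6 and capns1a had one of -0.05, with 7.32, 7.56 and 7.52 against 7.63, 7.54 and 7.37. Of the 5 members with several rows, plod2 alone had rows that differed by over 0.3 in their log2 difference. The rows of kdm2bb gave -0.30 and -0.04, those of kdm5c -0.07 and -0.19, those of kdm4ab -0.11 and -0.07 and those of kdm2ba 0.01 and 0.05.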
